A study of Mus musculus with 2 samples.

Results

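The class I histocompatibility genes of the mouse were followed in small intestinal RNA of animals fed marine fatty acids. The members are 10 genes: 7 class I heavy chains (H2-Q10, H2-K1, H2-D1, H2-T3, H2-T10, H2-T23 and H2-M3), the light chain B2m, and Tap1 and Tapbp, which load peptides onto the complex. They were chosen by gene family and with an earlier analysis of the same array signals in view, so every ratio of EPA&DHA over control is given as a description. Of 19324 gene names in the value table these are 10, and they were read by 33 probesets (sets of short probes for a transcript). Of these probesets 8 also name another gene and are marked as shared below. The EPA&DHA pool combined RNA from 11 male C57BL/6J mice aged 4 months, fed for 4 weeks a semisynthetic diet with 20% fat by weight in which 44% of the lipid was a concentrate holding 6% EPA and 51% DHA. The control pool came from 10 such mice, for which flaxseed oil, rich in the precursor ALA, was the whole source of lipid. Each pool was hybridized to 1 Affymetrix array, so the spread between mice is unknown and differences between the diets could not be tested.

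Class I molecules carry short peptides from inside the cell to its surface. Proteasomes cut the peptides, the TAP transporter moves them into the endoplasmic reticulum, and tapasin (Tapbp) helps to fit them into a heavy chain paired with β2-microglobulin (B2m). The classical heavy chains H2-K1 and H2-D1 are shown to CD8 T cells on nearly all nucleated cells. The remaining heavy chains are nonclassical, with narrower distribution or ligands, and the intestinal epithelium is known for displaying several of them to its intraepithelial lymphocytes.

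Signals are MAS 5.0 values in arbitrary units and can be set against each other only within a probeset. After the array's control probesets were set aside, the brightest 54% by mean log2 signal, 24320 in number, are called kept, with mean signals down to 50.8. The spread at a given brightness, called the local SD, is the robust SD of the log2 ratios of the 500 probesets nearest in signal. It measures spread across probesets and not between animals. Markers of absorptive enterocytes were bright on both arrays, with signals of 23996 on EPA&DHA and 24490 on control for Vil1, a structural protein of the brush border, and 40590 on EPA&DHA and 50059 on control for Fabp2, which binds fatty acids. Of 12 kept enterocyte markers 11 had a log2 ratio below 0, the median was -0.19, and the peptide transporter Slc15a1 was the exception at 0.82. Of all 24320 kept probesets 13227 were below 0, with a median of -0.04. Of the 804 with a control signal of 10000 or more 523 were below 0, with a median of -0.08. The marker values are those of the brightest probesets. A second bright probeset of the glucose transporter Slc5a1 had 20716 on EPA&DHA and 12383 on control. This is a log2 ratio of 0.74, beside -0.10 on the brightest of that gene. The methods describe scraped epithelial cells, whereas the labels describe the complete small intestine.

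Most class I probesets had similar signals on both diets, and a single heavy chain gene, H2-Q10, stood far below the rest. Of the 33 probesets 25 were kept, and 15 of these 25 differed by less than 1.2-fold between diets, as did 52.3% of all kept probesets. Their median log2 ratio was -0.09, beside -0.04 over all kept probesets. At least 1.5-fold higher on EPA&DHA were 2 of the 25, both reading H2-D1, beside 8.06% of all kept probesets. At least 1.5-fold lower was 1 of the 25, beside 8.89% of all kept probesets, and this was H2-Q10. At 2-fold none of the 25 was higher, beside 2.29%, and H2-Q10 was again the only lower one, beside 2.57%. Both counts are near what the whole array gave, so the family as a group does not stand apart by number. In this RNA from mixed tissue, fewer cells of a type and less RNA per cell cannot be told apart.

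**Figure D1:**
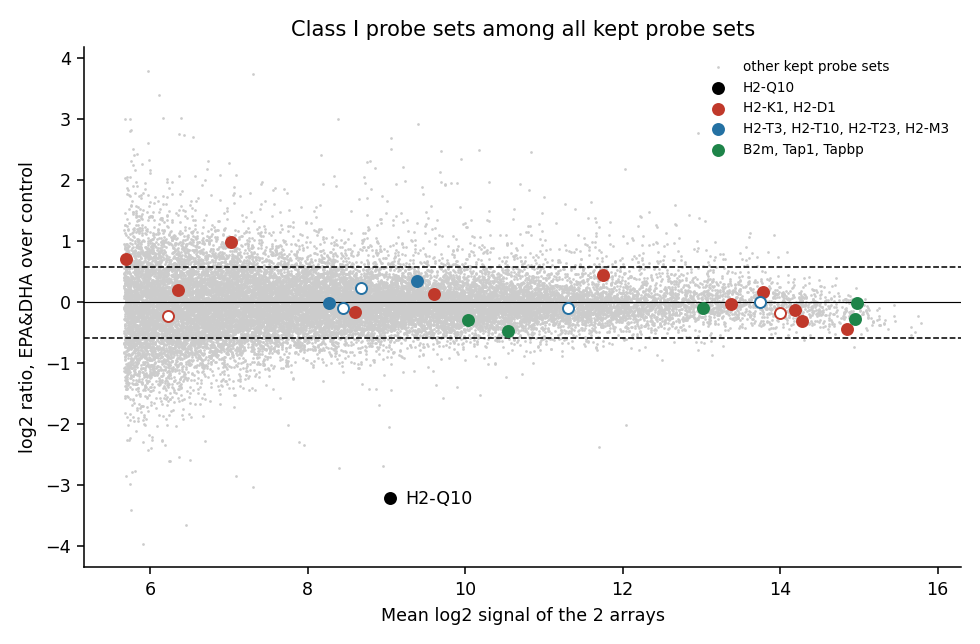
Log2 ratio of EPA&DHA over control (y axis) against the mean log2 signal of the arrays (x axis) for all kept probesets (grey) and the 25 kept class I probesets (coloured by role, open circles shared with another gene). Dashed lines mark 1.5-fold, and H2-Q10 lies at -3.21 while every other class I point lies between -0.46 and 0.98.

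H2-Q10 encodes a class I heavy chain that lacks a membrane anchor and is secreted, and it is known mainly as a product of the liver. Its only probeset had a signal of 173.4 on EPA&DHA, against 1604 on the control diet. The control signal was thus well above the level of the filter, and the EPA&DHA signal remained above it. This was 9.25-fold lower, a log2 ratio of -3.21 where the local SD was 0.30. Only 3 of the 24320 kept probesets had a lower ratio. Among the 6515 probesets with a control signal of 1000 or more, a limit chosen after the values were seen, none was lower. By quantitative PCR of the pools, the authors also reported a lower H2-Q10 level on EPA&DHA, by a much smaller fold than on the array. The array value rests on 1 probeset of 1 pair of pools. Its ID ends in _a_at, the form given to probes that read several transcripts of a gene. Without that probeset the remaining 24 had a median of -0.06 and a lowest log2 ratio of -0.46.

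Markers of the hepatocyte, the known source of H2-Q10, were mostly dim on both arrays. Alb, which encodes albumin, had signals of 12.9 on EPA&DHA and 4.70 on control, and Fga, Fgb and Ahsg, further secreted liver proteins, had signals from 1.17 to 2.15 on EPA&DHA and from 1.75 to 13.4 on control. Of the 7 hepatocyte genes the table names, 2 were kept, Ttr and Apoh, with log2 ratios of -0.20 and -0.52 on their brightest probesets. The other kept probesets of Ttr had log2 ratios from -0.14 to 0.64. The summed level of these 2 genes was 645.4 on EPA&DHA and 789.5 on control, a ratio of 0.817. Thus the defining markers Alb, Fga, Fgb and Ahsg were below the filter on both diets, with ratios on both sides of 1.

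The genes measured around H2-Q10 in the histocompatibility region did not share its ratio. In the gene order of the RefSeq table for GRCm38.p6, with 15 protein-coding genes taken on each side on chromosome 17, 18 of these 30 genes had a kept probeset of their own. Their log2 ratios ran from -0.73 to 0.99 with a median of -0.12. The genes nearest to H2-Q10, namely H2-Q4, H2-Q6, H2-Q7 and Pou5f1, had no kept probeset of their own. H2-Q2, a heavy chain gene of the same cluster, was higher, with a signal of 7712 on EPA&DHA and 3877 on control, 1.99-fold at a local SD of 0.26. The probeset shared by H2-Q7 and H2-Q9, which encode the Qa-2 antigen, had signals of 739.4 on EPA&DHA and 966.5 on control, a log2 ratio of -0.39. The probeset shared by H2-Q6 and H2-Q8 had 433.9 and 397.7, a log2 ratio of 0.13, and a dimmer probeset shared with H2-Q4 as well had 0.53 at a local SD of 0.50. Thus H2-Q heavy chains were read on both sides of 0. Outside the family, Ddr1, a receptor for collagen, had a log2 ratio of 0.95, Cdsn, an adhesive protein of the epidermis, -0.73 at a local SD of 0.70, Ltb, a lymphotoxin chain, -0.64 at 0.40, Lst1, a leukocyte transcript, -0.60 at 0.59, and Atp6v1g2, a proton pump subunit, 0.60 at 0.76.

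**Figure D2:**
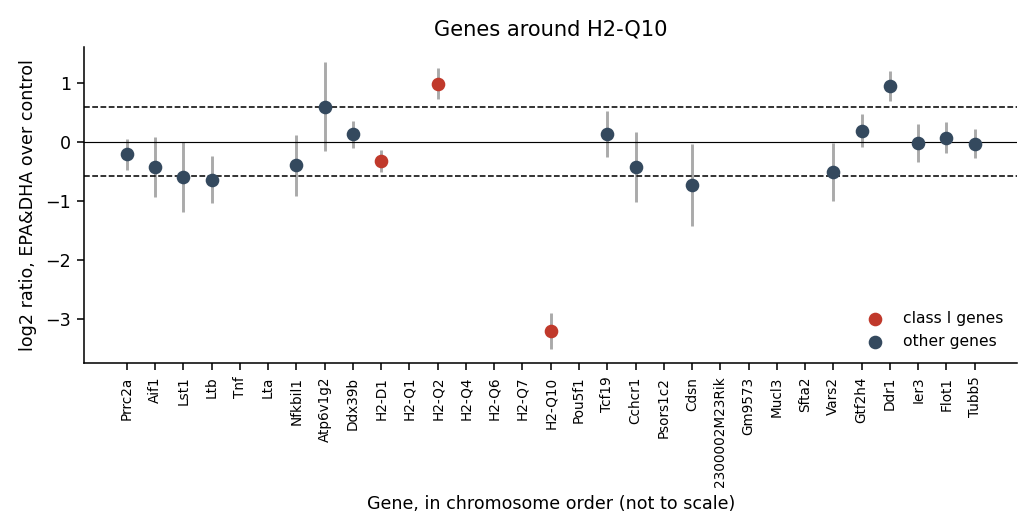
Log2 ratio of EPA&DHA over control (y axis) for genes in their order around H2-Q10 (x axis, not to scale), each from its brightest kept probeset of its own, with bars of 1 local SD; genes without a point had none. H2-Q10 lies at -3.21 and H2-Q2 at 0.99, while the other genes shown lie between -0.73 and 0.95.

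The stretch that holds the κB-type and interferon-type elements of class I promoters is shown for 5 genes. The sequences are from RefSeq (GRCm38.p6), and a promoter window, 250 bases before to 50 after the start site, was found for 9 of the 10 members, all but H2-T10. The letters searched on both strands were GGGATTCCC (κB-type), AANNGAAA (interferon regulatory factor type) and CCAAT, present in 0.353%, 23.9% and 37.4% of the 32851 windows in the table. Each line gives the strand of the gene, 5′ to 3′, with matches of the first and second motif in capitals, the interferon type on the opposite strand.
H2-Q10, chr17:35469901-35469963, plus strand: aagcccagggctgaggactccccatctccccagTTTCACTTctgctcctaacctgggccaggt
H2-K1, chr17:34000408-34000470, minus strand: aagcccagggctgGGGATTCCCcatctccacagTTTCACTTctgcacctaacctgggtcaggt
H2-D1, chr17:35262911-35262973, plus strand: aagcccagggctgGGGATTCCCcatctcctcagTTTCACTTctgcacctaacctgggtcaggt
H2-Q6, chr17:35424665-35424727, plus strand: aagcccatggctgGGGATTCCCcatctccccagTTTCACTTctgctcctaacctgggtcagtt
H2-Q7, chr17:35439009-35439071, plus strand: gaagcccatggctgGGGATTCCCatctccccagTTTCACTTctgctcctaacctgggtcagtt

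H2-Q10 holds the interferon-type letters of the sister genes shown here and not their κB-type letters. Aligned with H2-D1, its motif differs by G1A and T5C, counted from 1 at the 5′ end of GGGATTCCC with the H2-D1 base given before the position. Over the best-aligned part of the windows 254 of 302 columns, or 84.1%, were identical between H2-Q10 and H2-D1. Between H2-Q10 and H2-K1 82.6% of 235 columns were identical. H2-K1 has 2 windows, and the first listed was used. Among the members only H2-K1 and H2-D1 hold the κB-type letters in this window. Outside the members, H2-Q6 and H2-Q7 hold these letters, and H2-Q2 and H2-Q4 have no exact match. H2-Q4 reads gggatttccc shortly before its interferon-type match, which differs by an added T and not by the changes of H2-Q10.

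The stretch that ends at the TATA-type letters and holds the paired CCAAT letters of class I promoters, is shown here for H2-Q10, both classical genes and H2-Q2, whose probeset had the highest ratio among kept class I probesets. Capitals mark CCAAT on either strand.
H2-Q10, chr17:35469999-35470067, plus strand: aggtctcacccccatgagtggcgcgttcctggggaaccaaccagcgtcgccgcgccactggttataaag
H2-K1, chr17:34000306-34000374, minus strand: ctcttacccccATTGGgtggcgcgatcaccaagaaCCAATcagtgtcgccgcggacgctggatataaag
H2-D1, chr17:35263006-35263074, plus strand: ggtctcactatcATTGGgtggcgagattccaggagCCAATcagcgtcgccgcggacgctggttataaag
H2-Q2, chr17:35342218-35342286, plus strand: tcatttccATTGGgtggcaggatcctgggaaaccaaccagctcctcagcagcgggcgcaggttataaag

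H2-Q10 has 0 matches to CCAAT, H2-Q2 has 1 and H2-K1 and H2-D1 have 2 each. The window of H2-T3, another member, also has 0. In the copy on the strand of the gene H2-Q10 differs from H2-D1 by T5C, counted from 1 at the 5′ end of CCAAT. H2-Q2 carries the same T5C change in the stretch shown. The single interferon-type match of H2-Q2 overlaps its CCAAT match. These letters are a description of the windows, and nothing on the binding of a factor was measured. A part played by them in the ratios was not tested.

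The classical heavy chains H2-K1 and H2-D1 had high signals that differed little between diets. The brightest probeset of H2-K1 had a signal of 25321 on EPA&DHA, against 34474 on control, which is 1.36-fold lower with a log2 ratio of -0.45 at a local SD of 0.20. Its other probesets did not repeat that ratio. A second probeset of H2-K1 alone had signals of 14953 on EPA&DHA and 13308 on control, a log2 ratio of 0.17, and a further one had 10513 and 10723, a log2 ratio of -0.03. The dimmest one that names H2-K1 alone had 812.9 on EPA&DHA and 740.1 on control. Over all 6 kept probesets of H2-K1 the mean log2 ratio was -0.09, with an SD of 0.23 between probesets.

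H2-D1 was read by 11 probesets, of which 8 were kept. The brightest 2 of H2-D1 alone had signals of 17855 and 17861 on EPA&DHA, against 22212 and 19546 on control, with log2 ratios of -0.32 and -0.13. The next had a higher signal on EPA&DHA, 4015 against 2949 on control, a log2 ratio of 0.45 at a local SD of 0.22. The probesets at least 1.5-fold higher were the dim ones, with signals of 183.3 on EPA&DHA and 92.93 on control for the first, a log2 ratio of 0.98 at a local SD of 0.50. The other had 65.86 on EPA&DHA and 40.40 on control, with 0.71 at 0.76. The mean over the 8 was 0.19 with an SD of 0.47, so probesets of H2-D1 disagreed in sign and no direction is given for this gene.

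Probesets of these similar genes can bind each other's transcripts. Of the 16 probesets that name H2-K1 or H2-D1, 12 have IDs that end in _x_at, which marks probes that may bind related transcripts, and 1 bright probeset names both genes. That shared probeset had a signal of 15428 on EPA&DHA and 17479 on control, a log2 ratio of -0.18. Among the 13 of these that were kept, the 6 with a control signal of 10000 or more had log2 ratios from -0.45 to 0.17 and a median of -0.16. The 6 kept ones with a control signal under 1000 ran from -0.22 to 0.98. A part played by related transcripts in these values was not tested.

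**Figure D3:**
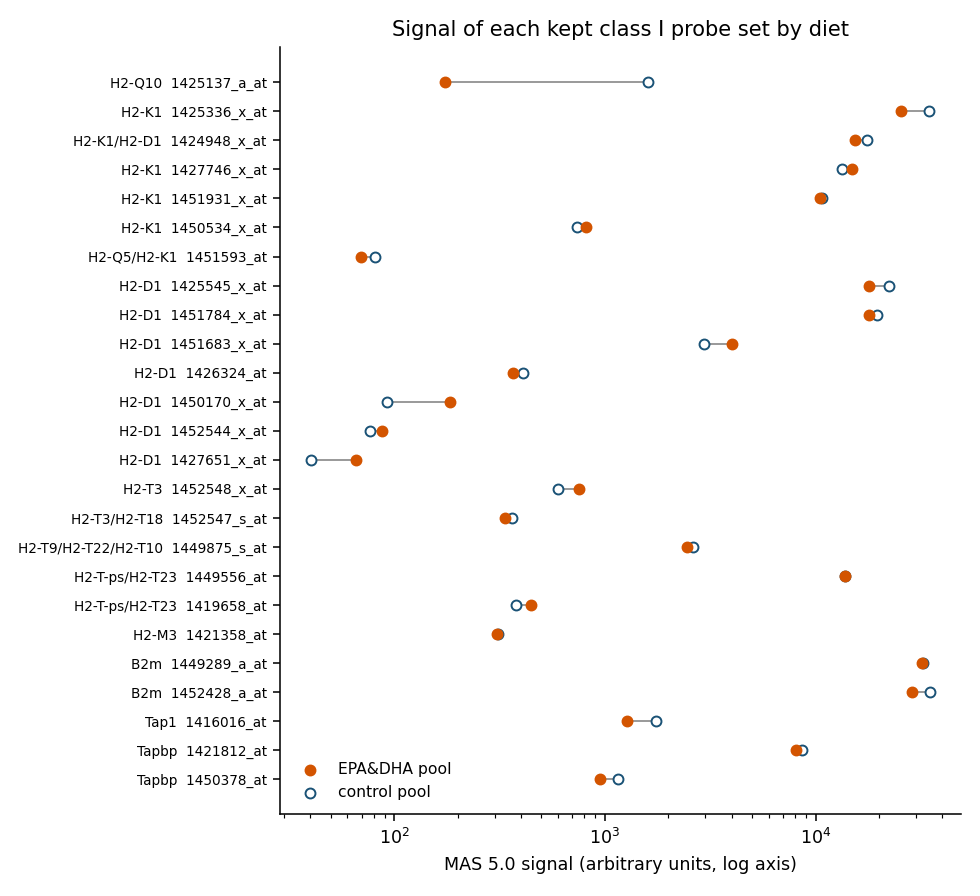
MAS 5.0 signal (x axis, log scale) of each of the 25 kept class I probesets (rows, with every gene the probeset names) in the EPA&DHA pool (filled) and in the control pool (open). H2-Q10 shows the widest gap, 173.4 on EPA&DHA and 1604 on control, and the pairs of H2-M3, H2-T23 and the first B2m probeset nearly coincide.

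The nonclassical genes H2-T23, H2-M3 and H2-T10 had ratios near 1 on their brightest probesets, and H2-T3 a somewhat higher one. H2-T23 encodes Qa-1, which presents leader peptides of other class I molecules to receptors of natural killer and T cells. Its bright probeset, shared with H2-T-ps, had signals of 13775 on EPA&DHA and 13770 on control, a log2 ratio of 0.00, and the dimmer shared one had 443.5 and 377.1, a log2 ratio of 0.23 at a local SD of 0.32. H2-M3, which presents formylated peptides of bacteria, had 307.1 on EPA&DHA and 310.6 on control, a log2 ratio of -0.02 at 0.38. For these genes the difference between pools was smaller than the local SD.

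H2-T3 encodes the thymus leukemia antigen, which is displayed by small intestinal epithelium and binds the CD8αα form found on intraepithelial lymphocytes. On the probeset of H2-T3 alone the signal was 756.7 on EPA&DHA, against 595.9 on control, a log2 ratio of 0.34 at a local SD of 0.26. On the probeset shared with H2-T18 it was 337.0 on EPA&DHA and 361.5 on control, with -0.10 at 0.32. The sign thus differed between its kept probesets. H2-T10, a ligand of γδ T cells listed in the RefSeq table as a transcribed pseudogene, was read only together with H2-T9 and H2-T22. This shared probeset had 2449 on EPA&DHA and 2612 on control, a log2 ratio of -0.09.

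The 5 kept probesets of the light chain and the loading genes all had log2 ratios below 0, except that the first B2m probeset was above 0 after other scalings (0.02 to 0.14), and none reached 1.5-fold. B2m, the light chain that every class I heavy chain needs for stable display, had signals of 32146 on EPA&DHA and 32455 on control on its first probeset, and 28820 and 34962 on its second. These are log2 ratios of -0.01 and -0.28, each at a local SD of 0.20. Tap1, a subunit of the peptide transporter, had 1269 on EPA&DHA and 1750 on control, 1.38-fold lower with a log2 ratio of -0.46 at 0.25. Tapbp, which encodes tapasin, had 8053 on EPA&DHA and 8584 on control, and 947.0 and 1154 on its other probeset, with log2 ratios of -0.09 and -0.29. Over these 5 probesets the median was -0.28, beside -0.02 for the 20 kept heavy chain probesets. Of all 24320 kept probesets 13227 were below 0, with a median of -0.04. Of the 804 with a control signal of 10000 or more, as both of B2m have, 523 were below 0, with a median of -0.08.

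In units of the local SD, 16 of the 25 kept probesets lay within 1, as did 66.4% of all kept probesets. Past 2 local SDs were 2 of the 25, H2-Q10 and the brightest probeset of H2-K1, beside 7.67% of all, and past 3 was H2-Q10, beside 2.07%. The 8 class I probesets that were not kept read H2-D1 (3), Tap1 (3), H2-T3 and H2-T10, with log2 ratios from -1.46 for H2-D1 to 3.01 for Tap1. The Tap1 value compares signals of 37.34 on EPA&DHA and 4.62 on control at a local SD of 2.78, so no weight can be put on it.

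On a list of proteasome subunits, peptidases, chaperones and transporters of antigen processing, none of 13 kept genes was at least 1.5-fold apart on its brightest probeset. Of all kept probesets 8.06% were that much higher and 8.89% lower. Bright probesets reach 1.5-fold less often: of the 6515 with a control signal of 1000 or more, 212 were higher and 146 lower. Of these 13, 10 had a log2 ratio below 0 and the median was -0.20, beside 13227 of all 24320 kept probesets below 0 and a median of -0.04. The enterocyte markers had a similar median, given above as -0.19. The lowest was Npepps, a cytosolic aminopeptidase, at -0.51, with -0.67 on its other kept probeset. A dim second probeset of Tapbpl, a relative of tapasin, stood at -1.21 at a local SD of 0.70, and its brightest at -0.16. Psmb9, Psmb8 and Psmb10, the catalytic subunits of the immunoproteasome, had -0.33, -0.21 and -0.20, and Tap2, the partner of Tap1, -0.22, while a dimmer probeset of Psmb8 stood at 0.73. The chaperones Calr, Pdia3 and Canx, which hold the heavy chain during loading, had -0.04, -0.15 and 0.15, and Hspa5, the general chaperone of the endoplasmic reticulum, -0.25, each on its brightest probeset. Other kept probesets of Canx and Hspa5 had the opposite sign.

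Among other class I and class I-like genes, 7 had a kept probeset of their own. At least 1.5-fold higher was 1 of them, H2-Q2 described above, beside 8.06% of all kept probesets. The others ran from -0.43 for H2-Q5 to 0.58 for H2-M9, both dim. Fcgrt, the neonatal Fc receptor that carries antibodies across epithelium, had signals of 3436 on EPA&DHA and 3266 on control, a log2 ratio of 0.07.

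Of 20 kept regulators of class I transcription none was at least 1.5-fold apart on its brightest probeset, beside 8.06% of all kept probesets higher and 8.89% lower. Below 0 were 14 of the 20, and the median was -0.19, beside the same 13227 of 24320 and -0.04 over all. Nlrc5, the transactivator of class I genes, had signals of 129.2 on EPA&DHA and 170.9 on control, a log2 ratio of -0.40 at a local SD of 0.48. Irf1 and Irf2, which act on the interferon-type element, had log2 ratios of -0.29 at a local SD of 0.23 and 0.52 at 0.26, and the NF-κB subunit Rela -0.15. Rfx5, part of the complex on class I and class II promoters, was the lowest at -0.57. The brightest probeset of Irf8, a factor of immune cells, stood at -0.24, and its other one had signals of 938.9 on EPA&DHA and 1878 on control, 2.0-fold lower at a local SD of 0.25. Ifngr2, a chain of the interferon-γ receptor, had -0.33 on its brightest probeset and -0.61 on the other.

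Of all kept probesets 8.89% were at least 1.5-fold lower on EPA&DHA and 8.06% at least 1.5-fold higher, with a median of -0.04. Of 21 kept interferon-induced genes 3 were at least 1.5-fold lower on their brightest probesets and none was at least 1.5-fold higher. Their median was -0.18. The lower ones were the chemokines Cxcl9 and Cxcl10, with log2 ratios of -1.02 and -0.75 at a local SD of 0.42 each, and the guanylate-binding protein Gbp6 with -0.84, whose other probeset stood at 0.46. Cxcl9 had signals of 147.6 on EPA&DHA and 300.1 on control. The brightest others, Oas1a, Oasl2, Ifit1 and Ifi47, had 0.04, -0.06, -0.26 and -0.35. Beyond the brightest probesets, Gbp2 had another at -0.80 and Iigp1 another at 0.80.

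**Figure D4:**
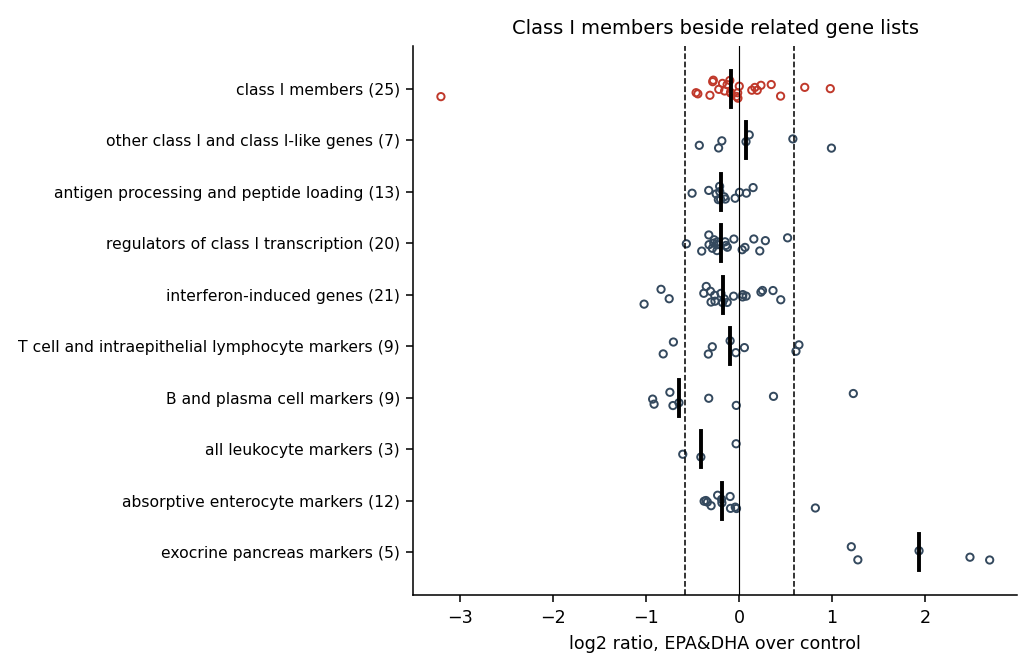
Log2 ratio of EPA&DHA over control (x axis) for the 25 kept class I probesets (red) and, in the other rows, for the genes of related lists by their brightest kept probeset (numbers in brackets; black bars are medians, dashed lines 1.5-fold). The class I median is -0.09, that of B and plasma cell markers -0.65 and that of exocrine pancreas markers 1.93.

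Lymphocytes carry and read class I molecules. Of 9 kept markers of B and plasma cells 5 were at least 1.5-fold lower on EPA&DHA and 1 at least 1.5-fold higher, with a median of -0.65, beside 8.89% of all kept probesets lower and 8.06% higher. The lower ones were Ighm (-0.93), Derl3 (-0.92), Ms4a1 (-0.75), Cd79a (-0.71) and Cd79b (-0.65), and the higher one was Tnfrsf17 (1.23), at local SDs up to 0.61, that of Tnfrsf17. Jchain, Mzb1 and Igha, also on this list, had 0.37, -0.03 and -0.33 on their brightest probesets. The other kept probesets of Igha had -0.21 and -0.23. Other kept probesets of Ighm alone ran from -0.65 to 0.25. The summed signal of the 9, most of it from Igha and Jchain, was 40873 on EPA&DHA and 44508 on control. Of 9 kept T cell and intraepithelial lymphocyte markers 2 were higher, Cd3e (0.61) and Cd247 (0.64), and 2 lower, Cd8a (-0.82) and Thy1 (-0.71). The median over this list was -0.10. Its summed signal, most of it from Gzma, was 8478 on EPA&DHA and 9864 on control. Cd247 and Thy1 were dim, with local SDs of 0.67 and 0.65. Itgae, an integrin of intraepithelial lymphocytes, had 0.06 on its brightest probeset, and a second, dimmer one stood at -0.77 at a local SD of 0.50. The other kept probesets of Cd8a, the coreceptor for class I, ran from -0.52 to 0.02. Klrd1 and Cd160, further receptors that read class I, had 0.12 and 0.10 on their brightest probesets. Over the 3 kept genes of such receptors, Cd8a included, the median was 0.10. Ptprc, Coro1a and Laptm5, expressed by leukocytes in general, had -0.41, -0.61 and -0.03 on their brightest probesets, and the dimmest of Laptm5 had -1.02 at a local SD of 0.56. Macrophage and dendritic cell markers had a median of -0.07, with none of 10 at least 1.5-fold apart on its brightest probeset, while another of C1qb stood at 0.63. Exocrine pancreas markers were higher on EPA&DHA for 5 of 5 kept genes, with a summed signal of 8828 on EPA&DHA and 2372 on control. The part of these cells in the class I ratios was not tested.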

How the data were processed

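The authors hybridized RNA of 1 pool per diet to Affymetrix MOE430_2 arrays and deposited MAS 5.0 signals on a linear scale, with a 2% trimmed mean of 500 on both arrays. No probe-level files, detection calls or change p-values were used here; for MAS 5.0 no version is given in the sources used. The table holds 45101 probesets, of which 64 are array controls and 45037 were analysed. Probesets were named through the platform annotation, updated by gene identifier to RefSeq (GRCm38.p6 table): 34945 name 1 gene, 932 several and 9160 none. The trimmed means were set equal, log2 ratios of EPA&DHA over control were taken, and the brightest 54% were kept. A gene on a list took its brightest kept probeset that names it alone. Of the related lists, genes at least 1.5-fold apart are named, up to 6 each way, with up to 4 of the brightest others; further list genes, the neighbours of H2-Q10 and the signal limits of 1000 and 10000 were chosen after their values were seen. Members and lists were chosen with earlier results of these data known. The precision is limited to 1 array per diet. Alternatives were other scalings, an offset, other filters and other choices of probeset. The code was tested on simulated data. Scripts ran in Python 3.11.15 with pandas 2.3.3, numpy 2.4.6, biopython 1.88, statsmodels 0.14.6 and matplotlib 3.10.9.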

Additional observations from a re-analysis of the deposited data

How the results depend on the processing

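No paired analysis was possible because each diet has 1 array. The log2 ratio of H2-Q10 ran from -3.21 to -2.89 over the alternatives, and -2.89 was the value with an offset of 50 added to each signal. The number of class I probesets at least 1.5-fold lower was 4 with no filter and 1 in every other alternative run. The number at least 1.5-fold higher, 2 as reported, was 5 with no filter, 1 with the offset, 0 when the brightest 27% were kept and 0 without probesets whose ID ends in _x_at or _s_at, since the 2 are dim and of the _x_at form. The median over class I probesets ran from -0.16 to -0.03, and that over heavy chains from -0.09 to 0.06, so the heavy chain median has no settled sign. The first B2m probeset stood at 0.14 after quantile normalization. Of 76 values of single genes under alternatives 72 moved by less than their local SD, and 4 by more: H2-Q10 with the offset, H2-K1 at -0.22 without _x_at and _s_at probesets and at -0.09 as a mean over probesets, and H2-D1 at 0.19 as such a mean. Some of the 76 could not move. The deposited signals already had equal trimmed means, so using them unscaled repeats the reported values. For a gene with 1 kept probeset, other choices of probeset return the same value or none. H2-T10 and H2-T3 gave no value without _x_at and _s_at probesets, and H2-T10 and H2-T23 none with probesets of 1 gene only. The share of probesets past 1.5-fold that were higher was 47.6% as reported and 55.0% after loess. With 1 array per diet, dim probesets, with local SDs up to 0.76 among the kept ones, allow no statement on differences of 1.5-fold.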

Other observations

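Class II genes, which display peptides taken up from outside the cell, were read by 22 probesets, of which 20 were kept. Past 1.5-fold on EPA&DHA were 2 upward and 2 downward, beside 8.06% and 8.89% of all kept probesets. The median log2 ratio was -0.11, beside -0.09 for class I. The difference between the families was not tested, since each diet has 1 array.

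A probeset that names H2-T18 alone, outside the lists, had a signal of 2230 on EPA&DHA and 1678 on control, a log2 ratio of 0.41 at a local SD of 0.26. It was chosen after its values were seen.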
